A study of Mus musculus with 10 samples.

Results

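The matrix metalloproteinase genes Mmp2, Mmp3, Mmp9, Mmp11, Mmp12, Mmp13 and Mmp14 and the inhibitor genes Timp1, Timp2 and Timp3 were taken by symbol from the deposited expression table, and all 10 of them were found among its 29890 genes. They were described in 10 bulk tumors of B2905-M4, a mouse melanoma line. Each tumor grew under the skin of a female C57BL/6J mouse that was 7 to 8 weeks old when 3000000 cells were injected, and no immunotherapy was given. A group of 5 tumors, written here as Adamts7 1 to 5, came from cells overexpressing Adamts7, which encodes a secreted metalloproteinase of the related ADAMTS family. The other 5, vector 1 to 5, came from cells carrying the control vector. Of the Adamts7 tumors 2 were harvested at day 35 and 3 at day 45, and of the vector tumors 3 at day 45 and 2 at day 50. The design text ties no day to a tumor, so harvest time and group cannot be told apart, and the sources used here do not say which promoter drives the transgene or whether the cells were 1 clone. Levels are in TPM, a transcript's share of its library after scaling by transcript length, so levels can be compared between genes, but read depth is unknown.

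Matrix metalloproteinases are zinc-dependent enzymes that cut collagens and other proteins around cells. Most are secreted as inactive proenzymes, and cleavage of the propeptide by plasmin, by furin-like convertases or by other metalloproteinases makes them active. TIMPs bind the active site of these enzymes and block it, and TIMP2 together with the membrane enzyme MMP14 also takes part in the activation of proMMP2. In tumors these genes are known to be expressed by fibroblasts, macrophages and endothelial cells as well as by cancer cells. TIMP3 is known for blocking some ADAM and ADAMTS enzymes in addition to the matrix metalloproteinases. Transcript levels do not show how much active enzyme is present.

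Mmp3, Mmp12 and Mmp13 lie on chromosome 9 in a row of 10 metalloproteinase genes, and the other 7 genes of that row reached at most 1.56 TPM in any tumor. Of the 10 genes 8 had entries in a RefSeq promoter table of build GRCm38.p6, with 9 entries in all that run from 250 bases before a transcript start to 50 bases after it. Mmp2 and Mmp9 had none. The promoters of the chromosome 9 genes are shown because AP-1, a transcription factor induced by cytokines and growth factors, is known to act on genes of this row. The letters TGAGTCA, or TGACTCA on the other strand, were present in 3 of the 9 entries, 1 each for Mmp3, Mmp12 and Mmp13, and in 5.20% of all 32851 promoter entries of the same length. The last 110 bases before the transcript start are given for each of them, 5′ to 3′ on the plus strand, with these letters in capitals.
Mmp3, chr9:7445712-7445821: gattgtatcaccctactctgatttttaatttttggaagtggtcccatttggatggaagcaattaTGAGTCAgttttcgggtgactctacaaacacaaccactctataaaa
Mmp12, chr9:7347264-7347373: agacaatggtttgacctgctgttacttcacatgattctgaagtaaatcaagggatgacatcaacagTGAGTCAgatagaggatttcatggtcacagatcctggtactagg
Mmp13, chr9:7272404-7272513: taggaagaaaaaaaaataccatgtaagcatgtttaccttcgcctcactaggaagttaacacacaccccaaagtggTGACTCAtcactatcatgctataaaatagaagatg
The capitals begin 46 bases before the start in Mmp3, 44 in Mmp12 and 35 in Mmp13. Mmp12 has 2 start entries, and the one shown is that with the match. None of the 3 windows overlaps an annotated exon. The entries of Mmp11, Mmp14, Timp1, Timp2 and Timp3 lack these letters and have a higher share of G and C, 55.0% to 68.7% against 38.7% to 43.7% in the 4 entries of the chromosome 9 genes. All 5 of them hold the GC box GGGCGG on either strand, which 35.7% of all promoter entries hold and none of the chromosome 9 entries does. The ETS letters AGGAAG on either strand were found in 6 of the 9 entries and in 35.4% of all. The TATA letters TATAAA on either strand were found in the same 3 entries as the AP-1 letters and in 13.6% of all. In Mmp3 and Mmp13 they lie in the stretch shown, and in Mmp12 they begin at base 4 after the start, outside it. None of the 4 motifs contains another, and a match in a window is a description and not a bound site.

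Some tumors stood apart before any of these genes was considered. Adamts7 itself was between 74.8 and 96.0 TPM in Adamts7 1 to 4. The tumor labelled Adamts7 5 had 18.2 TPM, below vector 3 and vector 5 at 28.3 and 27.6 TPM. Directions below take that label as given. The summed level of 11 melanocyte markers was 313 TPM in vector 3 and 1994 TPM in vector 5, 8653 to 17280 TPM in vector 1, 2 and 4 and 12920 to 23900 TPM in the Adamts7 tumors. The summed level of 14 macrophage and monocyte markers was 3575 and 3214 TPM in vector 3 and vector 5, 855 to 1267 TPM in the other vector tumors and 453 to 2155 TPM in the Adamts7 tumors. Vector 4 carried 538 TPM of 8 skeletal muscle markers, against at most 13.4 TPM in any other tumor. In bulk tissue fewer cells of a type and less RNA per cell cannot be told apart.

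No difference between Adamts7 and vector tumors passed the limma test in any of the 10 genes. Limma called 0 of the 10 at an adjusted p under 0.05, against 0.223% of the 15276 genes tested, and 0 of the 10 had an unadjusted p under 0.05, against 20.2% of all. The 2 groups overlapped in all 10 genes, while 4.89% of all tested genes had groups without overlap. The median log2 fold change was -0.14 over the 10 genes and -0.10 over all genes tested, with 4 genes positive and 6 negative. The authors' deposited table called 1 of the 10, Mmp9, as lower in Adamts7 tumors, where 7.96% of all genes with an adjusted p were called. That table also called the overexpressed gene Adamts7 (log2 fold change 2.32, adjusted p = 0.000817). The limma fit did not call Adamts7 (log2 fold change 2.21, limma adjusted p = 0.104). A gene without a limma call may thus still differ between the groups. The larger differences lay between tumors of the same group. In 4 of the 10, Mmp2, Mmp3, Mmp9 and Mmp12, the residual standard deviation was above the 90th percentile of all tested genes, 1.23 to 1.31 on the log2 scale against a median of 0.341.

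**Figure D1:**
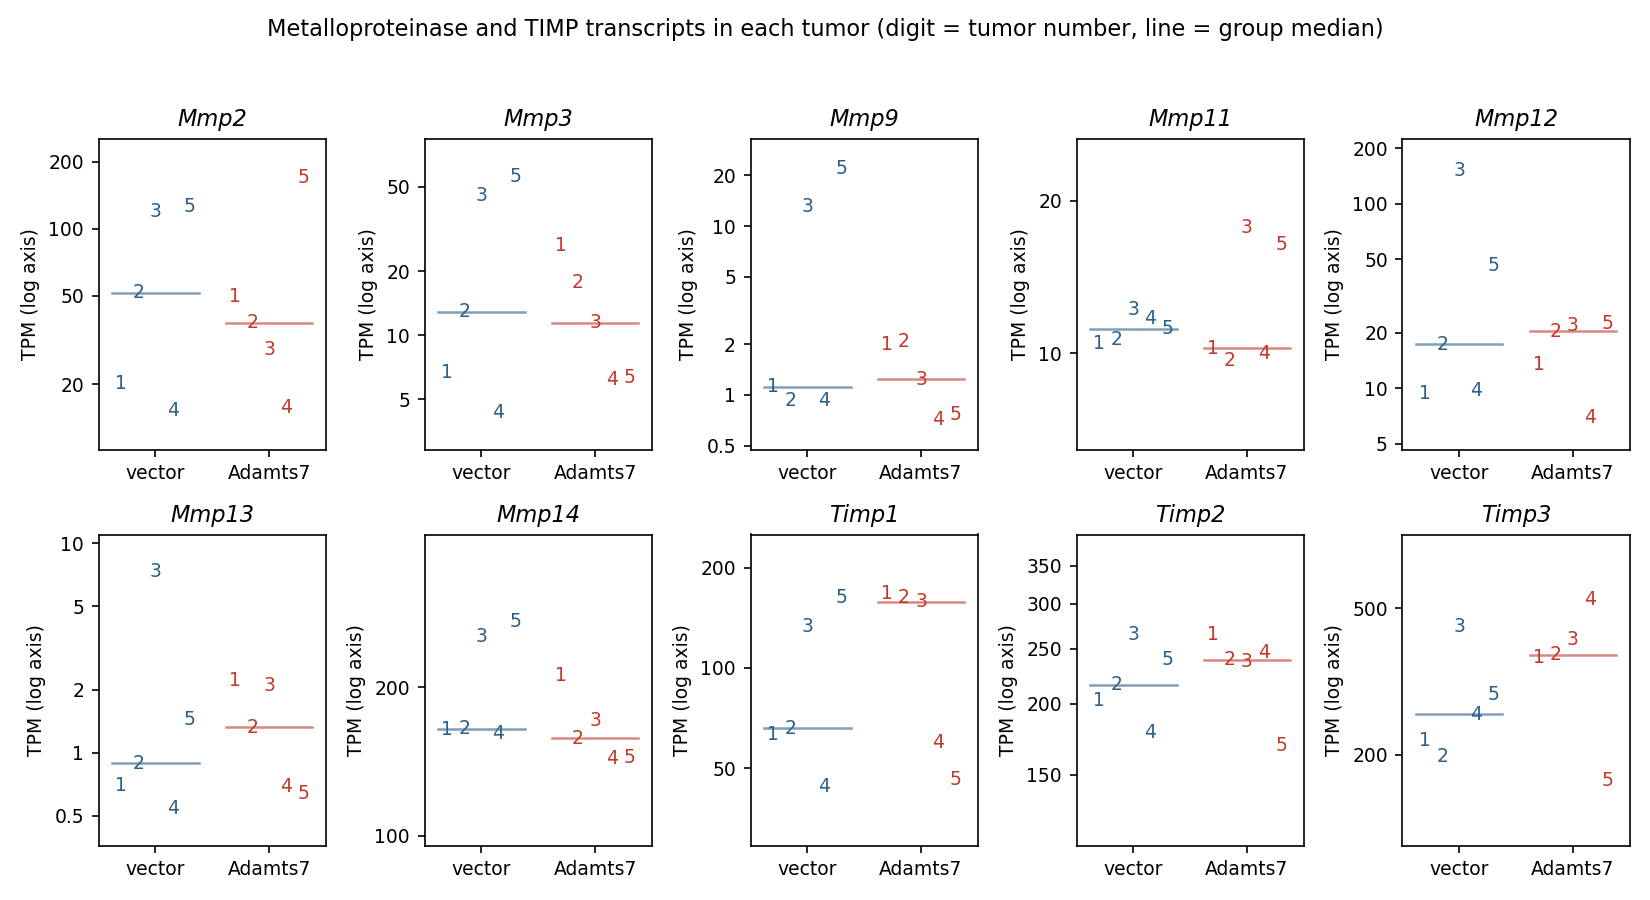
TPM of each gene on a log axis in the 5 vector tumors (blue) and the 5 Adamts7 tumors (red); each digit is 1 tumor and the line is the group median. Vector 3 and vector 5 are the highest of the 10 tumors for Mmp3, Mmp9, Mmp12 and Mmp14, and the groups overlap in every panel.

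The order of mean levels over the 10 tumors ran from the inhibitors to the secreted collagenase. Timp3 was first at 326 ± 118 TPM, followed by Timp2 at 226 ± 33.6 TPM and Mmp14 at 184 ± 45.7 TPM (SD, n = 10 each). Timp1 followed at 106 ± 54.4 TPM, Mmp2 at 63.4 ± 54.8 TPM and Mmp12 at 31.9 ± 43.3 TPM (SD, n = 10 each). Mmp3 was at 19.4 ± 18.0 TPM, Mmp11 at 12.0 ± 2.77 TPM, Mmp9 at 4.47 ± 7.20 TPM and Mmp13 at 1.79 ± 2.04 TPM (SD, n = 10 each). Each of the first 5 genes was above the next in 9 of 10 tumors. Mmp12 was above Mmp3 in 8 tumors, Mmp11 above Mmp9 in 8 and Mmp9 above Mmp13 in 8, while Mmp3 was above Mmp11 in 5 of 10, so that this pair has no fixed order. The first 8 places were the same in both groups, and Mmp9 and Mmp13 changed places between them. The inhibitors thus made up 3 of the 4 most abundant transcripts of the set.

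Mmp2 and Mmp9 encode the gelatinases, which cut denatured collagen and the collagen of basement membranes. Mmp9 was at 1.98, 2.07, 1.24, 0.71 and 0.760 TPM in Adamts7 1 to 5 and at 1.12, 0.920, 12.98, 0.920 and 22.0 TPM in vector 1 to 5. Vector 3 and vector 5 were far above the other 8 tumors, and the remaining 3 vector tumors lay inside the range of the Adamts7 tumors. The means were 1.35 ± 0.649 against 7.59 ± 9.59 TPM (SD, n = 5 each), and the medians were 1.24 and 1.12 TPM. The log2 fold change of Mmp9 was -1.07 (SE 0.71, 95% interval -2.64 to 0.50, limma adjusted p = 0.396). In the authors' deposited table it was -2.36 (SE 0.82) with an adjusted p of 0.0493. With pseudocounts of 0.5 and 0.1 TPM in place of 1 the limma value was -1.17 and -1.29, and the mean TPM of the Adamts7 tumors was 0.178 of that of the vector tumors. Without vector 3 and vector 5 the log2 fold change of Mmp9 was 0.20 (limma adjusted p = 0.815), so its direction turned.

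Mmp2 showed another distribution. It was at 49.5, 37.7, 28.6, 15.7 and 170 TPM in Adamts7 1 to 5 and at 20.1, 51.7, 119, 15.2 and 126 TPM in vector 1 to 5. The highest of all 10 tumors was the one labelled Adamts7 5, followed by vector 5 and vector 3, and the other 7 tumors were at 51.7 TPM or less. The means were 60.3 ± 62.5 and 66.4 ± 53.1 TPM (SD, n = 5 each), with a log2 fold change of -0.15 (SE 0.72, 95% interval -1.74 to 1.45, limma adjusted p = 0.922). Its direction turned when Adamts7 4, vector 3 or vector 5 was left out (log2 fold change 0.20, 0.18 and 0.20). The interval leaves room for a change of more than 1 on the log2 scale in either direction. In the tumor labelled Adamts7 5 the summed level of 12 fibroblast markers was 307 TPM, the lowest of the 10 tumors. It was 319 TPM in Adamts7 4 and 1183 and 1190 TPM in vector 3 and vector 5. Of these markers Col1a1, Col1a2, Pdgfra and Thy1 were lowest in the tumor labelled Adamts7 5, and the others were lowest in another tumor. Mmp2 in the tumor labelled Adamts7 5 was 6.60 times the level of Dcn, a matrix proteoglycan gene of fibroblasts. That ratio of Mmp2 to Dcn was between 0.384 and 1.12 in the other 9 tumors. The sources used here do not separate tumor cells from host cells, and which cells carried Mmp2 was not tested.

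Mmp3, which encodes stromelysin, an activator of other proenzymes, and Mmp11, a stromelysin activated by furin inside the cell, were unlike each other. Mmp3 was at 26.5, 17.7, 11.5, 6.23 and 6.31 TPM in Adamts7 1 to 5 and at 6.68, 12.9, 45.5, 4.36 and 56.0 TPM in vector 1 to 5. Vector 3 and vector 5 were again highest, and the other vector tumors were at 12.9 TPM or less, inside or below the range of the Adamts7 tumors. Its log2 fold change was -0.43 (SE 0.68, limma adjusted p = 0.729) and 0.62 (adjusted p = 0.647) without vector 3 and vector 5. Mmp11 was at 10.2, 9.70, 17.7, 9.99 and 16.4 TPM in Adamts7 1 to 5 and between 10.4 and 12.2 TPM in all 5 vector tumors. Only Adamts7 3 and the tumor labelled Adamts7 5 were above 12.2 TPM, and vector 3 and vector 5 did not stand out. The log2 fold change of Mmp11 was 0.13 (SE 0.18, 95% interval -0.27 to 0.53, limma adjusted p = 0.692). It was 0.011 without Adamts7 3, 0.04 without the tumor labelled Adamts7 5 and 0.31 under quantile normalization. Chchd10, which overlaps Mmp11 on the other strand, was at 195 TPM in the tumor labelled Adamts7 5 and at most 42.4 TPM elsewhere. In Adamts7 3, where Mmp11 was highest, Chchd10 was at 18.7 TPM. Chchd10 was at 18.6 TPM or more in the Adamts7 tumors and at 14.6 TPM or less in the vector tumors (limma adjusted p = 0.126). Its groups did not overlap, as was so for 4.89% of all tested genes. The kit is not stated to keep strand, so reads of overlapping genes may not be told apart.

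Mmp12, the macrophage elastase gene, and Mmp13, a collagenase gene, were highest in vector 3. Mmp12 was at 13.6, 20.4, 21.9, 6.98 and 22.4 TPM in Adamts7 1 to 5 and at 9.38, 17.3, 151, 9.77 and 46.4 TPM in vector 1 to 5. Its log2 fold change was -0.69 (SE 0.69, 95% interval -2.22 to 0.83, limma adjusted p = 0.566), and it was 0.40 (adjusted p = 0.71) without vector 3 and vector 5. The level of Mmp12 per level of a macrophage gene differed among the tumors. Relative to Adgre1, which encodes the macrophage marker F4/80, it was at 2.09 in the tumor labelled Adamts7 5 and 1.60 in vector 3, but at 0.526 in vector 5 and between 0.224 and 0.777 in the other 7 tumors. Relative to Cd68, another macrophage gene, it was at 0.310 in the tumor labelled Adamts7 5, 0.934 in vector 3 and 0.293 in vector 5, against 0.0180 to 0.0492 in the other 7. Over all 14 macrophage and monocyte markers the tumor labelled Adamts7 5 was above those 7 tumors with 13, vector 3 with 12 and vector 5 with 3, so the place of vector 5 rests on the marker chosen. Cd68 itself was lower in vector 3 and 5, at 162 and 158 TPM, than in vector 1, 2 and 4, at 218 to 411 TPM. Adgre1 went the other way, with its highest levels in vector 3 and 5 (94.2 and 88.1 TPM). Mmp9 relative to Adgre1 was 0.138 and 0.250 in vector 3 and vector 5 and between 0.0327 and 0.0708 in the other 8 tumors.

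Mmp13 was low throughout. It was at 2.20, 1.32, 2.10, 0.690 and 0.640 TPM in Adamts7 1 to 5 and at 0.700, 0.890, 7.34, 0.540 and 1.44 TPM in vector 1 to 5. Vector 5, which was close to vector 3 in Mmp3 and Mmp9, lay within the range of the Adamts7 tumors here. The log2 fold change of Mmp13 was -0.13 (SE 0.45, limma adjusted p = 0.883). It turned to 0.30 (adjusted p = 0.655) when vector 3 alone was left out, and to 0.06 under quantile normalization.

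Mmp14 encodes the membrane-anchored collagenase MT1-MMP and was the most abundant of the 7 proteinase genes in all tumors but the one labelled Adamts7 5, where Mmp2 was higher. It was at 211, 158, 171, 143 and 144 TPM in Adamts7 1 to 5 and at 164, 165, 254, 161 and 272 TPM in vector 1 to 5. The spread was narrow, 1.90-fold over the 10 tumors, against 31.0-fold for Mmp9. The log2 fold change was -0.27 (SE 0.19, 95% interval -0.68 to 0.14, limma adjusted p = 0.411). Without vector 3 and vector 5 it was 0.0032 (adjusted p = 0.996). Mmp14 made up between 39.9% and 79.1% of the summed TPM of the 7 proteinase genes.

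**Figure D2:**
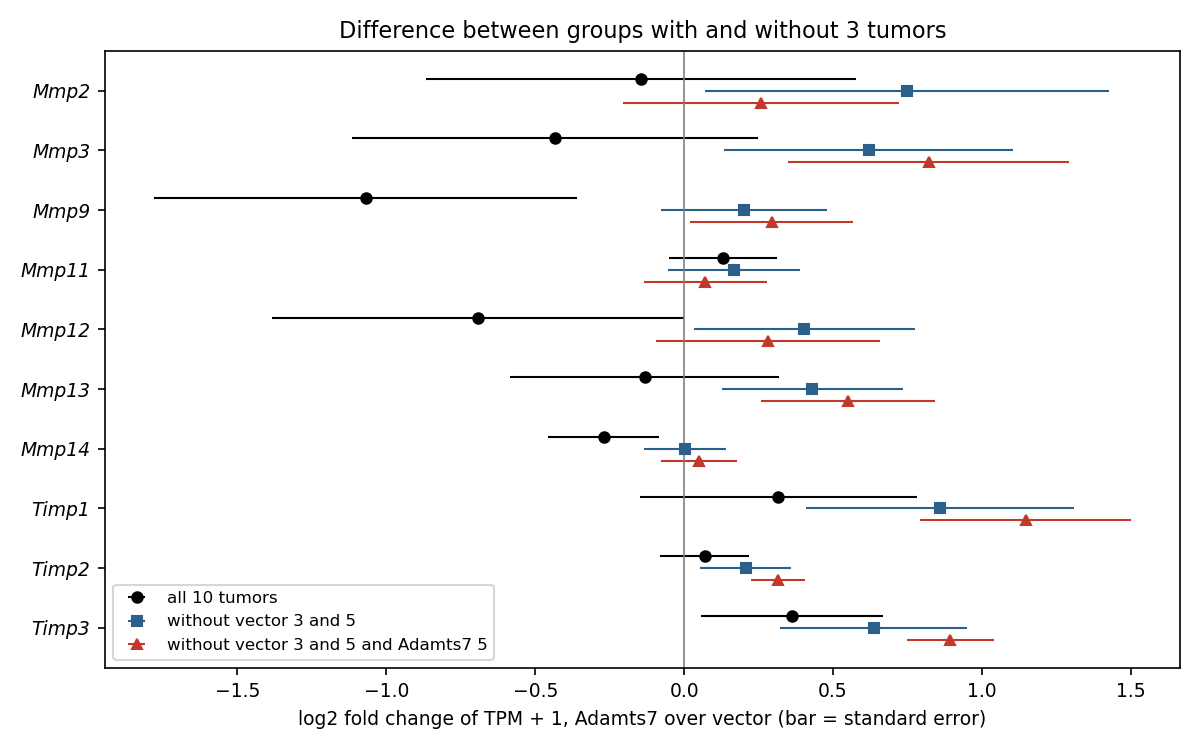
Log2 fold change of TPM + 1 between Adamts7 and vector tumors (x axis) for each gene (y axis), with its standard error as a bar, for all 10 tumors (black circles), without vector 3 and 5 (blue squares) and without vector 3, vector 5 and Adamts7 5 (red triangles). With all tumors 6 genes are below 0, and without vector 3 and 5 all 10 are above 0.

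Timp1, a secreted inhibitor that also binds proMMP9, split the tumors of both groups. It was at 168, 162, 158, 59.9 and 46.4 TPM in Adamts7 1 to 5 and at 63.1, 65.9, 133, 43.9 and 163 TPM in vector 1 to 5. The 5 tumors Adamts7 1 to 3 and vector 3 and 5 were at 133 TPM or more, and the other 5 were at 65.9 TPM or less. The means were 119 ± 60.3 and 93.7 ± 51.3 TPM (SD, n = 5 each), with a log2 fold change of 0.32 (SE 0.46, 95% interval -0.71 to 1.34, limma adjusted p = 0.709). That value was 0.09 without vector 4, 0.60 without the tumor labelled Adamts7 5, 0.86 without vector 3 and 5 and 0.96 with tumor weights, and none of these passed. Syn1, the gene that contains Timp1 on the other strand, was at 1.55 TPM or less in every tumor.

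Timp2, the inhibitor that pairs with MMP14 and MMP2, was the steadiest of the 10 genes. It was at 265, 239, 238, 246 and 169 TPM in Adamts7 1 to 5 and at 203, 216, 265, 178 and 240 TPM in vector 1 to 5. All tumors thus lay within 1.57-fold of each other, and the lowest was the one labelled Adamts7 5. The log2 fold change was 0.07 (SE 0.15, limma adjusted p = 0.809), and its 95% interval ran from -0.26 to 0.40. Cep295nl, which overlaps Timp2 on the same strand, was at 1.81 TPM or less.

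Timp3, the inhibitor that binds to the matrix, had the highest mean of the set in both groups. It was at 367, 373, 412, 529 and 169 TPM in Adamts7 1 to 5 and at 219, 198, 445, 257 and 291 TPM in vector 1 to 5. Adamts7 1 to 4 were above vector 1, 2, 4 and 5, and the tumor labelled Adamts7 5 was the lowest of all 10. The means were 370 ± 130 and 282 ± 98.1 TPM (SD, n = 5 each), with a log2 fold change of 0.36 (SE 0.31, 95% interval -0.31 to 1.04, limma adjusted p = 0.498). Leaving out the tumor labelled Adamts7 5 gave 0.62 (adjusted p = 0.142), and leaving out vector 3 and vector 5 gave 0.64 (adjusted p = 0.458).

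With all 3 of these tumors left out, in a fit chosen with earlier results known, the log2 fold change of Timp3 was 0.89 (SE 0.15, limma adjusted p = 0.0210). The tumors left out held the lowest Timp3 level of all 10 and the 2 highest of the vector group. Leaving them out by itself widens the difference. Timp3 was the 1 of the 10 genes called there, and 6.13% of all tested genes were called. The same gene was the 1 called when limma weighted the tumors by their spread, with a log2 fold change of 0.78 and an adjusted p of 0.0358, where 7.98% of all genes were called. Those weights were 0.265 for vector 3, 0.322 for vector 5 and 0.307 for the tumor labelled Adamts7 5, and between 1.33 and 2.83 for the other 7. The weighted fit thus sets back the same 3 tumors and is not independent of the fit without them. In the fit without the 3 tumors Timp1 and Timp2 had log2 fold changes of 1.15 and 0.32 and did not pass (limma adjusted p = 0.0959 and 0.0762). In the same fit 165 genes of the other lists were tested, and 5 of them were called higher and 5 lower. The higher ones included 2 of 7 mast cell markers and 2 of 13 mitochondrially encoded genes. Of 14 macrophage markers 13 were positive with 0 called. The median log2 fold change of the 12 fibroblast markers was 0.47, against -0.08 over all genes of that fit. With all 10 tumors the mitochondrial sums were 63320 to 76950 TPM in Adamts7 and 49840 to 63050 TPM in vector tumors. These sums did not overlap, as was so for 4.89% of all tested genes. In the fit with all tumors 10 of the 13 mitochondrial genes were positive and 0 were called. The part of these cell markers and mitochondrial genes in the level of Timp3 was not tested. Syn3, the gene that contains Timp3 on the other strand, was between 3.02 and 12.0 TPM.

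**Figure D3:**
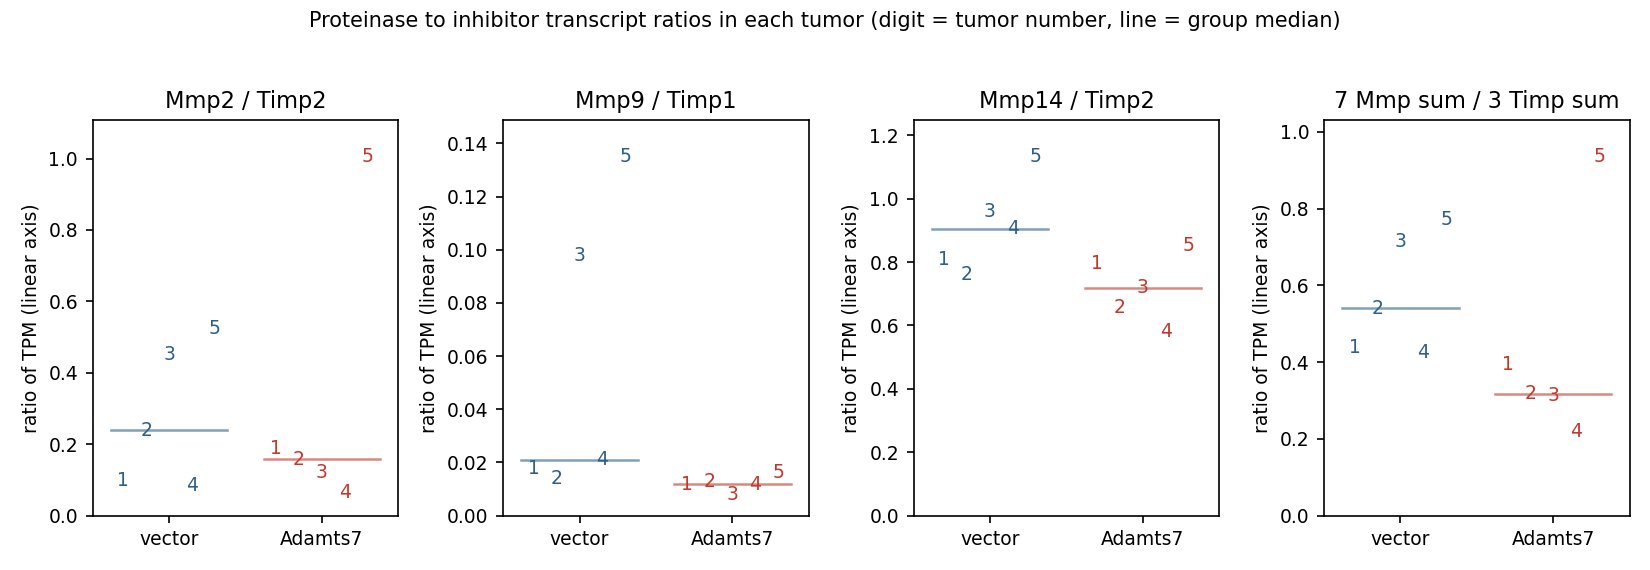
TPM of a proteinase gene divided by that of an inhibitor gene within each tumor (y axis, linear, from 0), and in the last panel the sum of the 7 Mmp genes over the sum of the 3 Timp genes; each digit is 1 tumor and lines are group medians. The tumor labelled Adamts7 5 is highest for Mmp2 over Timp2 and for the sums, and vector 3 and 5 are highest for Mmp9 over Timp1.

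Ratios within a tumor put the proteinases beside their inhibitors. Mmp9 over Timp1 was between 0.00786 and 0.0164 in the Adamts7 tumors, at 0.0178, 0.0140 and 0.0209 in vector 1, 2 and 4, and at 0.0977 and 0.135 in vector 3 and 5. Mmp2 over Timp2 was at 1.01 in the tumor labelled Adamts7 5, at 0.451 and 0.524 in vector 3 and 5, and between 0.0638 and 0.239 in the other 7 tumors. Only in the first of these did Mmp2 transcripts match those of Timp2. Mmp14 over Timp2 was 0.721 ± 0.107 in Adamts7 tumors and 0.913 ± 0.145 in vector tumors (SD, n = 5 each), and the groups overlapped. The 7 proteinase genes summed to 272 ± 67.9 and 362 ± 191 TPM and the 3 inhibitor genes to 721 ± 189 and 596 ± 166 TPM in Adamts7 and vector tumors (SD, n = 5 each). The sum of these 3 inhibitor genes exceeded that of these 7 proteinase genes in all 10 tumors. The margin was least in the tumor labelled Adamts7 5, at 385 against 360 TPM, where the proteinases reached 0.936 of the inhibitors. The 17 other genes of the family summed to 45.2 TPM in that tumor, so the order there depends on which genes are counted. The ratio of the proteinase sum to the inhibitor sum was 0.220 to 0.394 in Adamts7 1 to 4 and 0.425 to 0.771 in the vector tumors. With the tumor labelled Adamts7 5 counted, the groups overlapped. No test was made of these ratios and sums.

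Tumors of the same group shared high and low levels across several of these genes. Vector 3 and 5 were both above the other 3 vector tumors in 9 of the 10 genes, all but Mmp11, and 32.5% of all tested genes had that order. They were the 2 highest of all 10 tumors in 4 genes, Mmp3, Mmp9, Mmp12 and Mmp14, and in 24.1% of all tested genes. Adamts7 1 to 3 were all above Adamts7 4 and the tumor labelled Adamts7 5 in 5 of the 10 genes, Mmp3, Mmp9, Mmp13, Mmp14 and Timp1, and in 18.9% of all tested genes. The fibroblast marker sum had the same order, 714 to 1422 TPM in Adamts7 1 to 3 against 307 and 319 TPM in the other 2, as did the macrophage sum, 1537 to 2155 TPM against 453 and 928 TPM. Single markers did not all have that order. Pdgfrb, Fap, Dpt and Pi16 of the fibroblast list and Cd68 and Cd163 of the macrophage list broke it. Among the Adamts7 tumors Fap was highest in Adamts7 4, at 18.0 TPM, and Pdgfrb in the tumor labelled Adamts7 5, at 18.9 TPM. Of 11 neutrophil markers 10 were in the table, 8 of them at a mean under 1 TPM, with sums of 1.19 to 8.18 TPM in Adamts7 and 2.75 to 24.7 TPM in vector tumors. The part of these cell markers in the levels of the 10 genes was not tested.

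**Figure D4:**
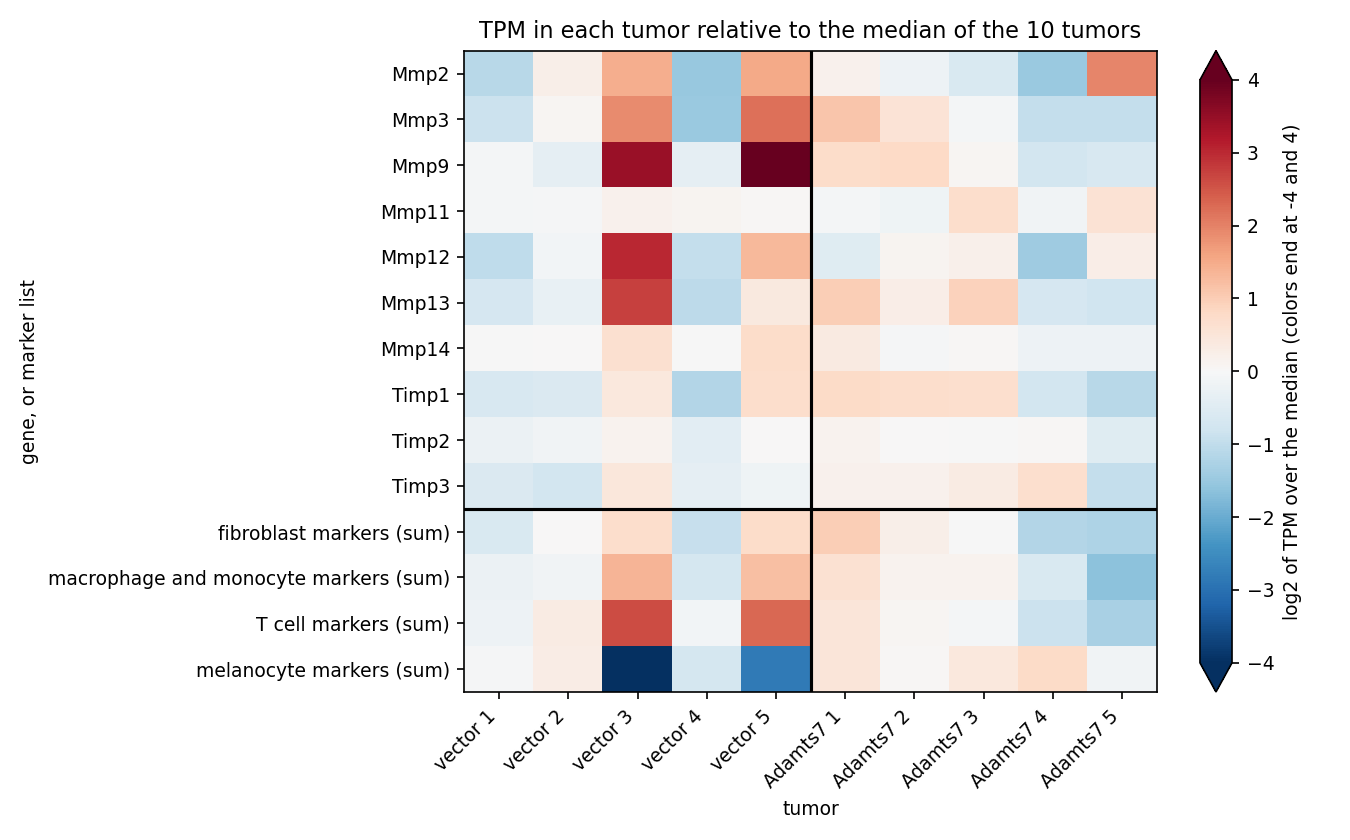
Log2 of TPM over the median of the 10 tumors (color, red above and blue below the median) for the 10 genes and for the summed levels of 4 marker lists (rows) in each tumor (columns); Thy1 is in both the fibroblast and the T cell list. Vector 3 and 5 are red in Mmp2, Mmp3, Mmp9 and Mmp12 and in the macrophage and T cell rows and blue in the melanocyte row, and the tumor labelled Adamts7 5 is red in Mmp2 and blue in the fibroblast and macrophage rows.

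Genes whose ranking over the 10 tumors was most like that of a member were taken from 12606 genes, as a description. Timp1 was most like Fbln2, which encodes a matrix protein, and Ubtd1 (Spearman rho 0.988 over 10 tumors and 0.976 over the 8 without vector 3 and 5 for both). Mmp2 was most like Usp10 and Hoxa5 (0.988 and 0.976), Mmp3 like Gda and Srpx (0.988 and 0.976), and Mmp9 like Usp27x and Junb, an AP-1 subunit (0.982 and 0.979). For Mmp11, Mmp12, Mmp13, Mmp14, Timp2 and Timp3 the highest values lay between 0.915 and 0.976. The same tumors, with the same mix of cells and the same libraries, enter every one of these values. The genes were picked as the highest of 12606 over 10 tumors, so values near 1 follow from the choice. The 8 tumors are among the 10 used to pick them, so their values are no separate check.

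The other genes of the family had no call either. Of 16 further metalloproteinase genes and Timp4, 7 had a mean of at least 1 TPM and 0 of them were called in either direction by limma. Their median log2 fold change was -0.36, and 1 was below an unadjusted p of 0.05, against 20.2% of all genes tested. That gene was Mmp19, at 7.13 ± 3.63 against 14.9 ± 3.82 TPM (SD, n = 5 each), with a log2 fold change of -1.06 (limma adjusted p = 0.140). Mmp25, a membrane-anchored enzyme of leukocytes, was at 10.4 and 8.84 TPM in vector 3 and 5 and at most 2.47 TPM elsewhere. Mmp15, another membrane-type gene, was at 23.2 ± 8.80 against 28.4 ± 6.28 TPM (SD, n = 5 each). Mmp8, the neutrophil collagenase gene, was at 0.370 TPM or less, and Timp4 at 0.330 TPM or less.

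Genes that activate the proenzymes were also without a call. Of 16 genes of activators and the plasminogen system 11 were tested, with a median log2 fold change of -0.36, and 0 were called in either direction. An unadjusted p under 0.05 was found for 3 of them, against 20.2% of all genes tested. These 3 were Serpine2, an inhibitor of plasminogen activators and thrombin, at 299 ± 97.3 against 734 ± 463 TPM, St14, which encodes the protease matriptase, at 0.390 ± 0.261 against 1.82 ± 1.45 TPM, and Klk8, a kallikrein protease gene, at 1.76 ± 0.959 against 5.23 ± 4.13 TPM (SD, n = 5 each). Their limma adjusted p-values were 0.174, 0.191 and 0.234. Pcsk6, a convertase of the furin family, was at 132 and 103 TPM in vector 3 and 5 and at most 9.28 TPM elsewhere.

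Of 12 genes of other inhibitors and of clearance 10 were tested and 0 were called. Below an unadjusted p of 0.05 were 3 of them, against 20.2% of all genes tested. Reck, a membrane-anchored inhibitor of matrix metalloproteinases, was between 11.1 and 16.7 TPM in Adamts7 tumors and between 16.9 and 52.4 TPM in vector tumors (log2 fold change -0.96, limma adjusted p = 0.155). The groups did not overlap in Reck, as was so for 4.89% of all tested genes. Pcolce, an enhancer of procollagen processing, was at 739 ± 91.2 against 529 ± 65.0 TPM and Bsg, which encodes the metalloproteinase inducer EMMPRIN, at 2605 ± 300 against 1430 ± 716 TPM (SD, n = 5 each). Their limma adjusted p-values were 0.116 and 0.161. Bsg was at 641 and 697 TPM in vector 3 and 5, the 2 lowest of the 10 tumors.

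Of 8 genes of the ADAM family of membrane proteases 7 were tested and 0 were called, with a median log2 fold change of -0.50. An unadjusted p under 0.05 was found for 3 of them, against 20.2% of all genes tested. Adam9 was between 30.9 and 44.6 TPM in Adamts7 tumors and between 49.4 and 71.9 TPM in vector tumors, and Adam17, which encodes the TNF-converting enzyme, between 23.1 and 32.9 TPM and between 33.0 and 53.8 TPM. Neither gene overlapped between the groups, as was so for 4.89% of all tested genes. The limma adjusted p-values of Adam9 and Adam17 were 0.0871 and 0.103. Adam15 was at 53.6 ± 12.2 against 93.8 ± 33.2 TPM (SD, n = 5 each, adjusted p = 0.149).

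Of 17 cytokines and receptors that induce metalloproteinase genes, 14 were tested and 0 were called by limma, with a median log2 fold change of -0.44. An unadjusted p under 0.05 was found for 3 of them, against 20.2% of all genes tested. Il1b was at 11.95 and 23.1 TPM in vector 3 and 5 and at most 2.38 TPM elsewhere, and Tnf at 14.2 TPM in both and at most 1.41 TPM elsewhere. Mmp9 and Mmp3 were also highest in these 2 tumors, which were the 2 highest in 24.1% of all tested genes. Not every gene of the list had that order. Tgfb1 was at 78.75 and 69.56 TPM in vector 3 and 5 and at 119.6, 104.5 and 72.3 TPM in vector 1, 2 and 4. The part of these cytokines in the levels of the metalloproteinase genes was not tested. Osmr, the receptor gene of oncostatin M, was between 2.10 and 5.69 TPM in Adamts7 tumors and between 6.80 and 10.1 TPM in vector tumors (log2 fold change -0.996, limma adjusted p = 0.105). Its groups did not overlap, as was so for 4.89% of all tested genes.

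Of 8 cathepsin genes and 16 genes of matrix substrates, all tested, 0 were called by limma in either list. An unadjusted p under 0.05 was found for 2 in each, against 20.2% of all genes tested. The medians of the log2 fold changes were -0.26 and -0.17. Ctsl, which encodes a lysosomal and secreted cysteine protease, was at 217 ± 31.3 against 304 ± 51.6 TPM (adjusted p = 0.135) and Ctsk, the collagen-cutting cathepsin, at 19.2 ± 8.69 against 45.3 ± 29.0 TPM (adjusted p = 0.225; SD, n = 5 each). Acan, the aggrecan gene of cartilage and a substrate of several of these enzymes, was at most 0.09 TPM in every Adamts7 tumor, at 0.410, 1.12 and 0.210 TPM in vector 1, 2 and 4, and at 8.08 and 32.7 TPM in vector 3 and 5 (limma adjusted p = 0.224). The groups did not overlap in Acan, as was so for 4.89% of all tested genes. Col4a1, a basement membrane collagen gene, was at 242 ± 30.8 against 296 ± 42.5 TPM (SD, n = 5 each, adjusted p = 0.247).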

How the data were processed

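RNA of 10 tumors was measured by poly(A) RNA-seq with unique molecular identifiers in the cDNA primers, sequenced from both ends over 150 bases, per the labels' protocols. The authors deposited log2(TPM + 1) per gene, and RSEM, the genome build mm39 and DESeq2 are named in the submitters' processing notes with no role given. TPM is scaled within a library, so the depth of each library is unknown and no counting interval was given. The authors' deposited table holds a mean signal of normalized counts, log2 fold changes with their standard errors, a score and p-values; its direction was read from the sign of Adamts7, and the sources used here state neither its design nor the annotation and strand setting of the counting. An immune repertoire table was not used here.

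Limma 3.58.1 in R 4.3.3, with its trend option, was fitted to the deposited log2(TPM + 1) values of the 15276 genes whose mean over the tumors reached 1 TPM, with 5 tumors in each group. P-values were adjusted over all these genes by Benjamini-Hochberg, and a call needs an adjusted p under 0.05. Means and SDs are in TPM and were computed with pandas 2.3.3 in Python 3.11.15. Replicates are separate tumors per the labels, and p-values measure only the spread between them. The fit was tested on simulated data. The members and gene lists were chosen with earlier results of these data known. From each list up to 3 genes with the smallest p were named, with up to 2 genes most like each member and those that overlap one. Mmp8, Mmp15, Mmp25, Timp4, Pcsk6, Il1b and Tnf were named after their values were seen. Neighbours and promoters come from GRCm38 annotation and were used only for names and sequence. Alternatives covered pseudocounts of 0.1 and 0.5 TPM, other filters and scalings, tumor weights, no trend, a block and left-out tumors. The gap of a tumor in TPM and Mmp12 over each macrophage marker were added after seeing the data.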

Additional observations from a re-analysis of the deposited data

Results flagged for a closer look

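On the log2(TPM + 1) scale, 1 tumor lay far from the other 4 in 2 of 20 groups of 5 tumors (its gap to the nearest over the range of the group above 0.71), and chance gives about 1 in 20. Mmp13 in vector 3 was at 7.34 TPM, against 0.54 to 1.44 TPM in the other vector tumors, with a gap of 0.728 of the range on the log2 scale and 0.868 in TPM. Timp2 in the tumor labelled Adamts7 5 was at 169 TPM, against 238 to 265 TPM in the other Adamts7 tumors, with a gap of 0.760 on the log2 scale and 0.717 in TPM. In TPM 4 groups passed, the other two being Mmp2 in the tumor labelled Adamts7 5 (gap 0.781) and Mmp12 in vector 3 (gap 0.739). The tumor labelled Adamts7 5 had the lowest Timp3 level and the highest Mmp2 level of all 10.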

How the results depend on the processing

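With limma, 0 of the 10 genes were called with all tumors and in each of the 10 fits that left out 1 tumor. Weighting the tumors called 1 (Timp3, 0.78) and so did leaving out vector 3, vector 5 and the tumor labelled Adamts7 5 (Timp3, 0.89), and the cause was not tested. Of 172 genes of the other lists 0 were called with all tumors, 12 with weights and 10 without those 3 tumors, and 0 to 3 with 1 tumor left out, the 3 being without the tumor labelled Adamts7 5. Over all genes the calls were 34, but 10 without a filter, 1219 with weights, 914 without the 3 tumors and 6 to 657 with 1 tumor left out, with 657 again without the tumor labelled Adamts7 5.

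Log2 fold changes turned direction as follows, none of them called. With weights Mmp2 was 0.10, Mmp3 0.43, Mmp12 0.0882 and Mmp13 0.42. Without vector 3 and 5 Mmp2 was 0.75, Mmp3 0.62, Mmp9 0.20, Mmp12 0.40, Mmp13 0.43 and Mmp14 0.0032. Without these and the tumor labelled Adamts7 5 Mmp2 was 0.26, Mmp3 0.82, Mmp9 0.29, Mmp12 0.28, Mmp13 0.55 and Mmp14 0.0495. With 1 tumor left out Mmp2 ran from -0.64 to 0.20, Mmp13 from -0.31 to 0.30 and Timp2 from -0.0046 to 0.18; Mmp2 turned without Adamts7 4, vector 3 or vector 5, Mmp13 without vector 3 and Timp2 without vector 4. Quantile normalization gave Mmp13 0.0568, and it and median-of-ratios scaling moved the median of all genes from -0.10 to 0.04 and 0.01. The split of all-gene calls was 4 higher and 30 lower with all tumors, 10 and 20 under quantile normalization and 8 and 21 under median-of-ratios scaling.

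The labels number tumors 1 to 5 in both groups, but nothing says a number marks a shared source, and same-number correlations ran from -0.278 to 0.262, with the own number best for 1 of 5. A replicate block called 0 of the 10 genes, 0 of the other list genes and 0 of all genes. Depth is unknown, so what it limits for genes with low levels such as Mmp9 and Mmp13 cannot be given.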
